A study of Mus musculus with 17 samples.

Results

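The genes described here are 10 markers commonly used for pericytes, the mural cells that wrap capillaries, and they were chosen by symbol: Mcam, Cspg4, Rgs4, Rgs5, Anpep, Cd248, Eng, Tbx18, Kcnj8 and Abcc9. Of these, 7 had a row among the 15062 genes of the count table, and Rgs5, Kcnj8 and Abcc9, which had none, were not analysed here. The study sequenced RNA in 17 libraries from C2C12, an established mouse myoblast line grown in medium with fetal bovine serum. All 6 groups were this line. The pMSCV group carried the empty vector, the SRF group carried SRF (serum response factor, which binds DNA and activates muscle and cytoskeletal genes), and the other 4 groups carried fusions named SRF-RELA, SRF-PDGFRB, SRF-ICA1L and SRF-FOXO1. SRF-PDGFRB had 2 libraries and each other group had 3. No agent, dose or time point differed between the groups. The labels do not say whether a line was 1 clone or a pool, what drove the constructs, or whether replicates were separate cultures, so p-values measure the spread between these libraries, which may be technical. The comparison asks whether levels of perivascular genes differed between the lines with a fusion and those with the empty vector or SRF.

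Pericytes sit within the basement membrane of small vessels and contact endothelial cells, to which they are recruited by signalling from PDGF-B to its receptor PDGFRB. No single gene marks them: surface proteins such as NG2 (Cspg4), CD146 (Mcam), CD13 (Anpep) and endosialin (Cd248) are combined with regulators of G-protein signalling (Rgs4, Rgs5), an ATP-sensitive potassium channel (Kcnj8 with Abcc9) and the transcription factor Tbx18. Most of these genes are also used by smooth muscle cells, fibroblasts or other mesenchymal cells, and in bulk RNA fewer cells of a type and less RNA per cell cannot be told apart.

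RefSeq promoter windows (GRCm38.p6, the 250 bases before the annotated start) were matched for 6 of the 7 measured genes, all but Cd248. Those of Rgs4 (chr1:169747643-169747892, minus strand), whose call depended on the replicate term, and Tbx18 (chr9:87731261-87731510, minus strand), with the narrowest range of levels, are printed 5′ to 3′ with the matches to the searched motifs in capitals.
Rgs4: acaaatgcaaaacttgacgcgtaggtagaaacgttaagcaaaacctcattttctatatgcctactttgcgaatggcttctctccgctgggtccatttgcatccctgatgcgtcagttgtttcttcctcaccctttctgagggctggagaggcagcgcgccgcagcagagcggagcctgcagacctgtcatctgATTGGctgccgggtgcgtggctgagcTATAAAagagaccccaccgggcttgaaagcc
Tbx18: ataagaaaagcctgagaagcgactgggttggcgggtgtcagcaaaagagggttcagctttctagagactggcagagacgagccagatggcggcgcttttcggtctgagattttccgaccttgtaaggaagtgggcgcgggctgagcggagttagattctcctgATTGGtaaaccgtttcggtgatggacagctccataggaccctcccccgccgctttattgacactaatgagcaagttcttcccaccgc
In the Rgs4 window the capitals mark a TATAAA on the given strand whose first base lies 31 bases before the start, and a CCAAT on the opposite strand (ATTGG as printed) 57 bases before it. In the Tbx18 window they mark a CCAAT on the opposite strand 87 bases before the start. Both strands were searched, and no match overlapped a match to another motif. The CArG box, the DNA element that SRF binds, was found in 1.47% of all 32851 windows and in 0 of these 6. TATAAA was found in 12.4% of all windows and CCAAT in 33.85%. The E-box CAGCTG (13% of all windows) was found in that of Anpep, the CRE TGACGTCA (1.55%) in that of Mcam, and the AP-1 motif TGANTCA (6.75%) in none of the 6. These are matches of letters in 1 window per gene.

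The total count per library lay between 20901442 and 23543734. Srf stood at 678 to 1673 CPM (the unit of level used here, counts relative to a TMM-normalised library total) in the 3 SRF libraries and at 66.6 to 93.8 CPM in pMSCV. In SRF-PDGFRB it was at 70.5 to 81.4 CPM, in SRF-RELA at 85.0 to 154.5 CPM, in SRF-FOXO1 at 71.8 to 105 CPM and in SRF-ICA1L at 121 to 279 CPM. The labelled cell type was checked on 15 skeletal myoblast and myocyte genes, all in the table, among them Des and Cdh15 (medians 304.8 and 125 CPM over the 17 libraries). Their summed level was 1392 to 2009 CPM in pMSCV. The 2 SRF-PDGFRB libraries stood apart from each other, at 98.1 CPM in replicate 1 and 2430 CPM in replicate 2. Summed fibroblast genes (9 of 12 listed) also singled out libraries: pMSCV replicate 2 held 5348 CPM against 1041 and 1587 CPM in the other pMSCV libraries, and SRF-FOXO1 replicate 3 held 7872 CPM. Endothelial genes (4 of 12 listed) summed to 0.891 to 6.32 CPM in every library. Cdh5, an endothelial cadherin, had 0 counts in 4 libraries, Tek, an endothelial receptor, had 0 in 1, and Pecam1 and Kdr had no row.

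**Figure D1:**
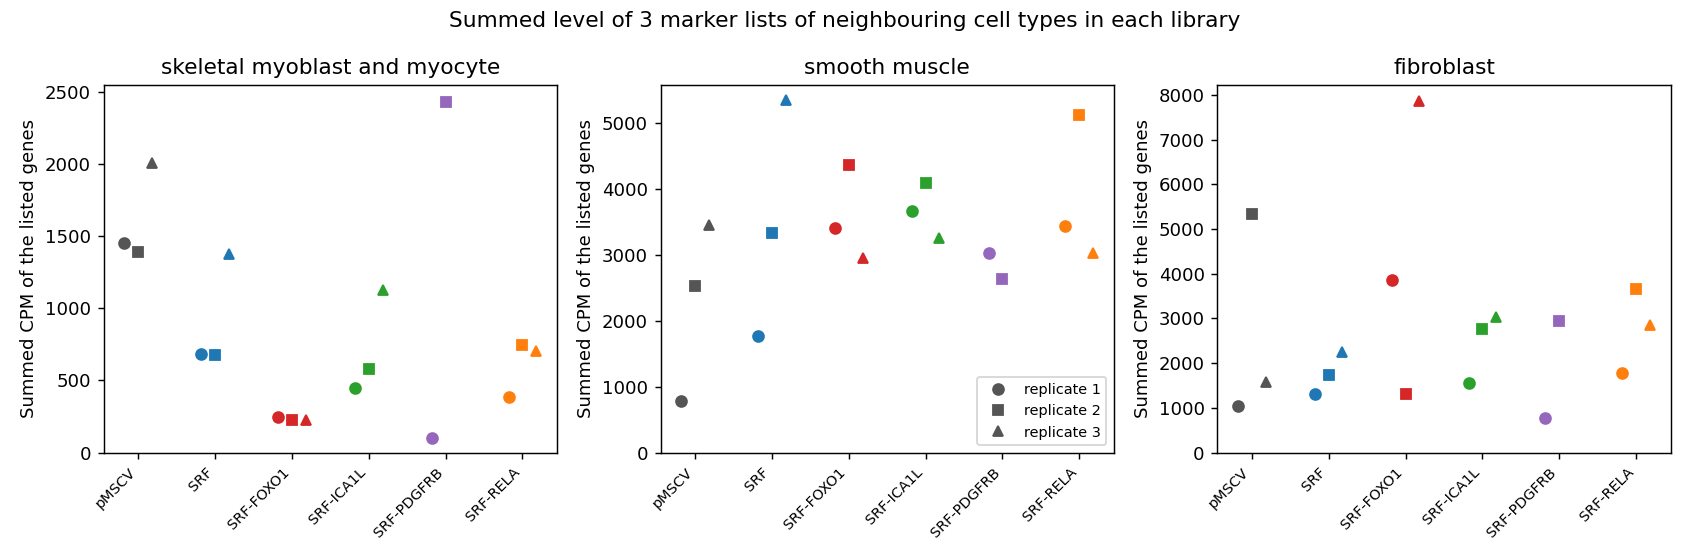
Summed level (CPM, linear axis from 0) of 15 skeletal muscle genes, 11 smooth muscle genes and 9 fibroblast genes in each of 17 libraries. Points are libraries, coloured by group and shaped by replicate number. The 3 SRF-FOXO1 libraries lie below all 3 pMSCV libraries for the skeletal genes, and pMSCV replicate 2 lies above the other pMSCV libraries for the fibroblast genes.

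Across the 17 libraries and per kilobase of exon, Anpep was the most abundant of the 7 genes, with a median of 21.6 CPM per kb. Tbx18 (6.83 CPM per kb), Cd248 (6.71 CPM per kb) and Cspg4 (4.84 CPM per kb) followed, and Eng (0.826 CPM per kb), Mcam (0.820 CPM per kb) and Rgs4 (0.530 CPM per kb) were low. The spread was unequal. Between the lowest and the highest library, Rgs4 differed 54.9-fold, Mcam 16.0-fold and Cd248 15.6-fold, whereas Tbx18 differed 1.97-fold and Cspg4 2.46-fold. When the 6 groups were ordered by mean level, the ranges of all 5 neighbouring pairs overlapped for each of the 7 genes.

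Levels were tested with the quasi-likelihood method of edgeR, and p-values were adjusted by the method of Benjamini and Hochberg (called the edgeR test below). No pericyte marker gene was called in any of the 9 comparisons (each line against pMSCV, each fusion against SRF) at an adjusted p under 0.05, and DESeq2 called 0 of the 7 in each as well. Of all genes, DESeq2 called against pMSCV 9.05% in SRF-FOXO1, 0.697% in SRF-RELA, 0.471% in SRF-PDGFRB, 0.299% in SRF-ICA1L and 0.0266% in SRF. Against SRF, DESeq2 called 3.96% in SRF-FOXO1, 0.385% in SRF-PDGFRB, 0.0664% in SRF-RELA and 0.0133% in SRF-ICA1L. The edgeR fit called few of all tested genes. Against pMSCV the share was 0% for SRF-RELA, 0% for SRF-ICA1L, 0.0199% for SRF-PDGFRB, 0.71% for SRF-FOXO1 and 0.00664% for SRF. Against SRF it was 0.00664% for SRF-RELA, 0% for SRF-ICA1L, 0.0531% for SRF-PDGFRB and 0.00664% for SRF-FOXO1. At an unadjusted p under 0.05 the members counted were 0 for SRF (3.34% of all genes), 1 for SRF-FOXO1 (20.9%), 2 for SRF-ICA1L (6.23%), 0 for SRF-PDGFRB (7.7%) and 1 for SRF-RELA (8.05%) against pMSCV. Against SRF they were 2 for SRF-FOXO1 (19.2%), 1 for SRF-ICA1L (1.56%), 0 for SRF-PDGFRB (5.03%) and 1 for SRF-RELA (3.21%). All of these lay on the higher side. In the fit of 12 libraries whose replicate numbers pair, with the number as a block, the counts were larger for the members and for all genes. They were 6 of 7 in SRF-RELA (22.4% of all genes), 5 in SRF-ICA1L (19%) and 3 in SRF (15.1%, Anpep on the lower side) against pMSCV. Against SRF they were 2 in SRF-RELA (17%) and 2 in SRF-ICA1L (9.08%). One of these, Rgs4 in SRF-RELA against pMSCV, passed after adjustment.

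The median log2 fold change of the 7 genes against pMSCV was 0.58 in SRF-RELA, 0.53 in SRF-ICA1L, 0.48 in SRF-FOXO1, 0.15 in SRF and -0.19 in SRF-PDGFRB, where the median of all genes lay between -0.02 and 0.01. The number of genes with a positive estimate was 6 of 7 in SRF-RELA and SRF-FOXO1, 5 in SRF-ICA1L and SRF, and 3 in SRF-PDGFRB. Against SRF the medians were 0.30 in SRF-RELA, 0.34 in SRF-ICA1L, 0.44 in SRF-FOXO1 and -0.48 in SRF-PDGFRB, and the median of all genes lay between 0.00 and 0.03. In the same order, those of the 9 fibroblast genes against SRF were 0.95, 0.68, 1.31 and 0.09. Those of the 11 smooth muscle genes were 0.89, 0.71, 0.68 and -0.75. Against pMSCV the fibroblast medians were -0.31, -0.52, 0.78 and -0.83 in that order. The comparisons share their control libraries. They are 3 in each case, so 1 control library moves all of them together.

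**Figure D2:**
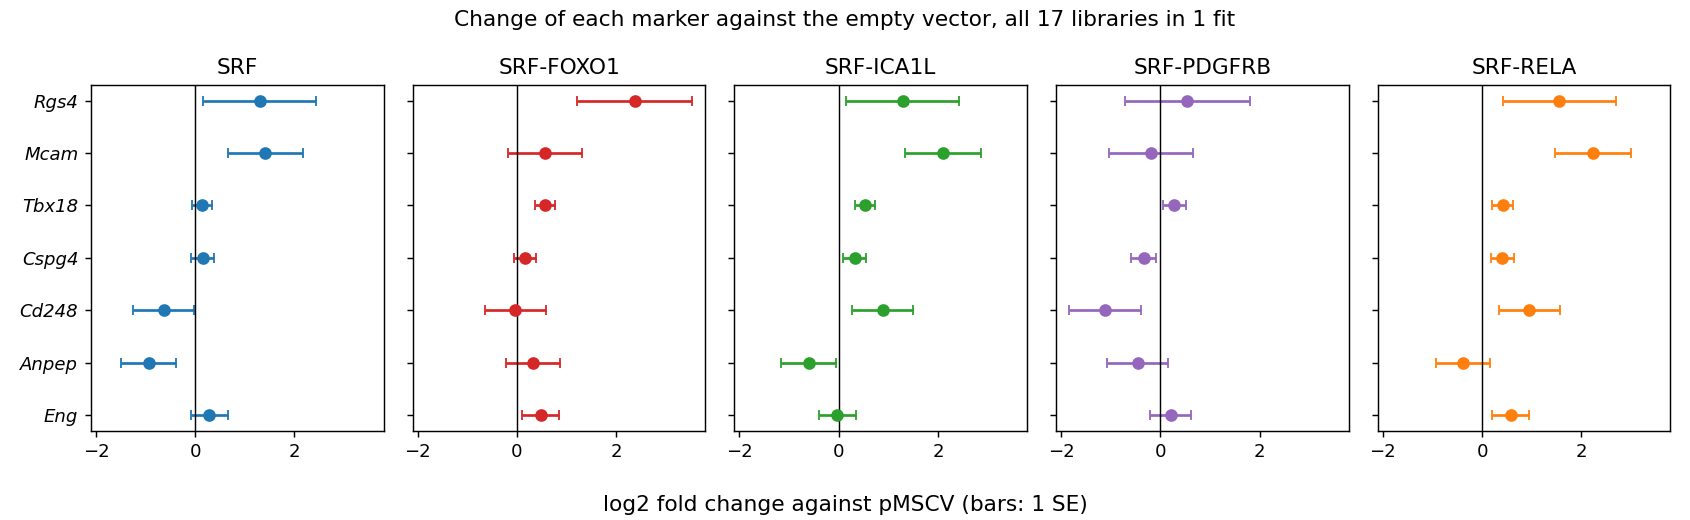
Log2 fold change of the 7 genes in each of 5 lines against pMSCV, from the edgeR fit of all 17 libraries. Bars show 1 SE. The largest estimates of the figure are of Rgs4 and Mcam, with among the widest errors, but in SRF-PDGFRB Cd248 lies furthest from no change. None of the 35 differences passed the adjusted test.

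Rgs4 encodes a regulator of G-protein signalling that speeds the switching-off of G-alpha subunits. Its row (ENSMUSG00000038530, GRCm38, chromosome 1, 169741477 to 169747642, minus strand) held between 4 and 226 counts per library. Replicates 1, 2 and 3 stood at 0.277, 0.661 and 1.45 CPM in pMSCV and at 0.409, 2.70 and 2.79 CPM in SRF. In SRF-FOXO1 they stood at 0.610, 1.735 and 10.08 CPM, and in SRF-ICA1L at 0.530, 1.83 and 3.48 CPM. In SRF-RELA they stood at 0.881, 1.64 and 4.52 CPM, and the 2 SRF-PDGFRB libraries at 0.184 and 2.135 CPM. In each of the 5 groups of 3, replicate 1 was the lowest and replicate 3 the highest, and every fusion's range overlapped that of pMSCV. Read within a replicate number, the SRF-RELA library held 3.19, 2.48 and 3.12 times the pMSCV level, and the SRF-ICA1L library 1.91, 2.77 and 2.40 times. SRF held 1.48, 4.08 and 1.925 times the pMSCV level, so in these 3 lines each of the 3 same-numbered ratios was above 1. The same held for SRF-FOXO1, at 2.21, 2.62 and 6.96 times, although its numbers were not treated as paired with those of pMSCV. The SRF-PDGFRB ratios were split, at 0.664 in replicate 1 and 3.23 in replicate 2.

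With no term for replicate number, Rgs4 was 1.56 ± 1.14 (log2 fold change ± SE) above pMSCV in SRF-RELA, with an adjusted p of 0.815 by the edgeR test. The 12 libraries of SRF-RELA, SRF-ICA1L, SRF and pMSCV deviated together by replicate number, and in a fit of these 12 with the number as a block Rgs4 rose by 1.57 ± 0.36 in SRF-RELA (adjusted p = 0.0278). The estimate was nearly the same and its SE was smaller. It was the only one of the 7 genes called in that comparison, in which 6.48% of all 14639 genes tested were called. Leaving out any 1 of 5 of the 6 libraries compared ended the call. The adjusted p was 0.0762 without pMSCV replicate 1, 0.0681 without pMSCV replicate 2 and 0.0771 without pMSCV replicate 3. It was 0.109 without SRF-RELA replicate 1 and 0.125 without SRF-RELA replicate 3, and 0.0301 without SRF-RELA replicate 2. The log2 fold change stayed between 1.40 and 1.855 in these 6 fits.

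In the same blocked fit, Rgs4 was 1.26 ± 0.36 above pMSCV in SRF-ICA1L (adjusted p = 0.0909, where 2.99% of all genes were called) and 1.31 ± 0.36 above it in SRF (adjusted p = 0.213, where 0.0137% were called). Neither passed. Between SRF-RELA and SRF the ratios within numbers were 2.155, 0.609 and 1.62, and the blocked difference was 0.27 ± 0.33 (adjusted p = 0.711), so these lines were not separated.

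**Figure D3:**
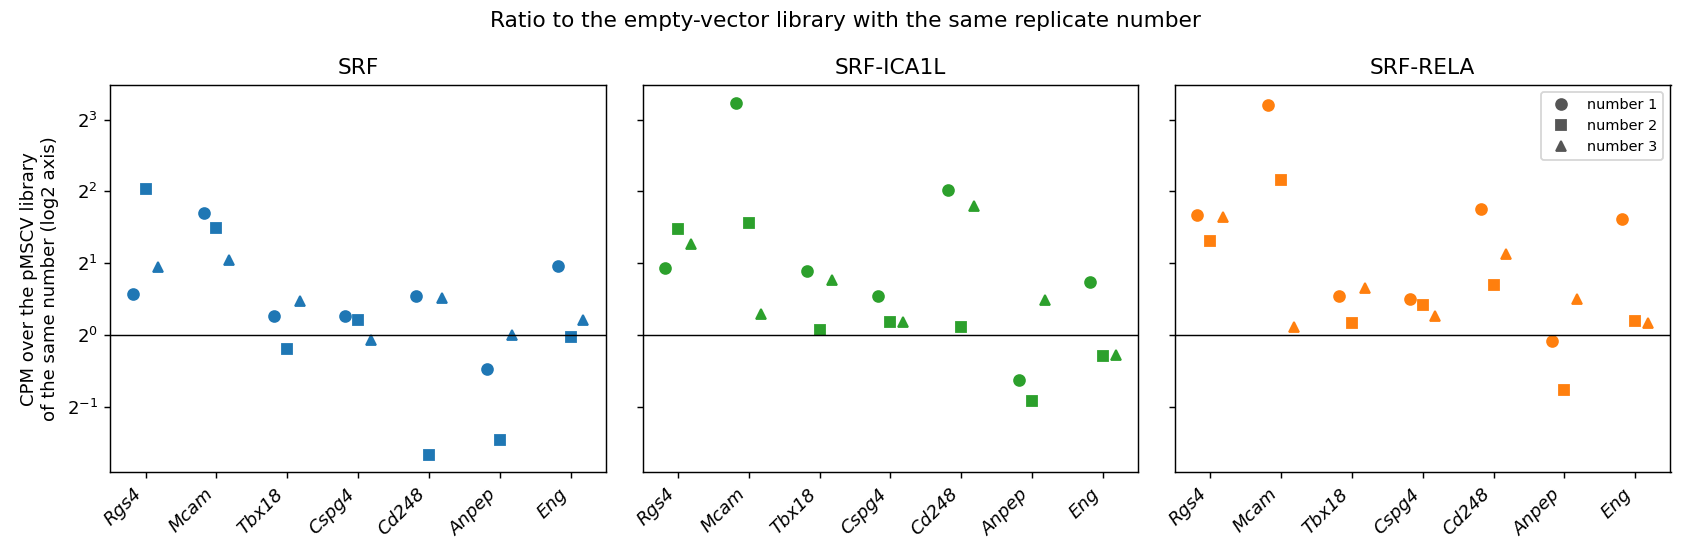
Ratio of each line's library to the pMSCV library of the same replicate number (log axis) for the 7 genes. Each point is 1 pair of libraries. The 3 Rgs4 ratios of SRF-RELA lie between 2.48 and 3.19, and those of Mcam run from 1.08 to 9.25.

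Mcam encodes CD146, an adhesion molecule of the immunoglobulin superfamily found on endothelial cells, pericytes and smooth muscle (ENSMUSG00000032135, chromosome 9, 44134469 to 44142727, plus strand). Replicates 1, 2 and 3 stood at 1.89, 1.94 and 2.24 CPM in pMSCV and at 6.13, 5.44 and 4.62 CPM in SRF. In SRF-ICA1L they stood at 17.8, 5.715 and 2.75 CPM, and in SRF-RELA at 17.5, 8.67 and 2.425 CPM. All 9 of these SRF, SRF-ICA1L and SRF-RELA libraries lay above the highest pMSCV library, although replicate 3 of either fusion exceeded it by little. In SRF-FOXO1 the level was 2.01, 5.815 and 1.25 CPM, and in the 2 SRF-PDGFRB libraries 2.43 and 1.11 CPM, and both groups overlapped pMSCV.

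Mcam was the only member whose range lay wholly above that of pMSCV in SRF, SRF-ICA1L and SRF-RELA. The share of all genes with such a gap on the higher side was 4.02%, 4.67% and 5.19%. The log2 fold change was 2.11 ± 0.76 in SRF-ICA1L (adjusted p = 0.677, edgeR test) and 2.23 ± 0.77 in SRF-RELA (adjusted p = 0.4985). With the replicate block in 12 libraries it was 1.72 ± 0.55 in SRF-ICA1L (adjusted p = 0.125) and 1.88 ± 0.55 in SRF-RELA (adjusted p = 0.0715), and 1.37 ± 0.54 in SRF (adjusted p = 0.295). Within the blocked fit, Mcam passed in SRF-RELA without pMSCV replicate 3 (2.44, adjusted p = 0.0310) or without SRF-RELA replicate 3 (2.34, adjusted p = 0.0489). Over the blocked fits with 1 library left out, 237 to 1200 of all genes were called in that comparison. Unblocked, the estimate in SRF-ICA1L was 1.06 without SRF-ICA1L replicate 1, and that in SRF-RELA 1.46 without SRF-RELA replicate 1, so the highest library set much of the size. Neither fusion was separated from SRF, since replicates 1 and 2 lay above their SRF counterparts and replicate 3 below (0.595 and 0.525 times). Both SRF-PDGFRB libraries lay below all 3 SRF libraries. Exons of Mcam share 17 bases with Gm10687 on the opposite strand, which was not analysed here.

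Cspg4 encodes NG2, a large chondroitin sulfate proteoglycan of pericytes and of glial progenitors (ENSMUSG00000032911, chromosome 9, 56865033 to 56899870, plus strand). By replicate number it stood at 57.7, 54.4 and 45.1 CPM in pMSCV, at 69.2, 62.8 and 42.8 CPM in SRF, and at 60.7, 59.3 and 55.9 CPM in SRF-FOXO1. They stood at 84.3, 61.5 and 50.9 CPM in SRF-ICA1L and at 81.9, 72.7 and 54.2 CPM in SRF-RELA, and the SRF-PDGFRB libraries at 48.7 and 34.2 CPM. In all 5 groups of 3, replicate 1 was highest and replicate 3 lowest, which is the reverse of Rgs4. The ranges overlapped in all 9 comparisons with pMSCV or SRF. Both SRF-PDGFRB libraries lay below every library of the other 3 fusions, by 48.7 against 50.9 CPM at the nearest. The share of all genes with such a gap was not computed. The SRF-RELA library held 1.42, 1.34 and 1.20 times the same-numbered pMSCV level. In the blocked fit Cspg4 was 0.41 ± 0.11 above pMSCV in SRF-RELA (adjusted p = 0.0528) and 0.31 ± 0.11 in SRF-ICA1L (adjusted p = 0.162), by the edgeR test. Between SRF-RELA and SRF it was 0.27 (adjusted p = 0.243). None passed, and without the block the first was 0.41 with the same direction in all 3 numbers.

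Cd248 encodes endosialin, a transmembrane glycoprotein of stromal fibroblasts and pericytes, from a single exon of 2605 bases (ENSMUSG00000056481, chromosome 19, 5068078 to 5070682, plus strand). The pMSCV replicates 1, 2 and 3 stood at 5.95, 33.9 and 8.04 CPM, and those of SRF at 8.63, 10.7 and 11.5 CPM. The level was 20.1, 55.1 and 17.5 CPM in SRF-RELA, 24.1, 36.7 and 27.9 CPM in SRF-ICA1L and 17.9, 9.61 and 19.2 CPM in SRF-FOXO1. The SRF-PDGFRB libraries held 3.54 and 11.2 CPM. All SRF-ICA1L and SRF-RELA libraries lay above all SRF libraries, and both lines overlapped pMSCV, whose replicate 2 was the one with high fibroblast genes. The part of those genes in the Cd248 level was not tested.

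Cd248 and Tbx18 were the 2 members with such a gap above SRF in SRF-ICA1L (4.38% of all genes) and in SRF-RELA (5.86%). For Cd248 the difference from SRF was 1.53 ± 0.63 in SRF-ICA1L (adjusted p = 0.9998) and 1.59 ± 0.63 in SRF-RELA (adjusted p = 0.975), by the edgeR test. With the replicate block it was 1.48 (adjusted p = 0.2625) and 1.36 (adjusted p = 0.148). In this fit 0.0956% and 0.656% of all genes were called. Within numbers the ratios to SRF were 2.79, 3.45 and 2.43 in SRF-ICA1L and 2.33, 5.175 and 1.52 in SRF-RELA. Without SRF-RELA replicate 2 the unblocked difference in SRF-RELA was 0.87 (adjusted p = 0.9999). Against pMSCV the blocked difference was 1.22 ± 0.40 in SRF-ICA1L (adjusted p = 0.1335) and 1.10 ± 0.39 in SRF-RELA (adjusted p = 0.129). Without pMSCV replicate 2 it was 1.82 and 1.77, and both then passed (adjusted p = 0.0246 and 0.0172). In that fit 543 and 1200 of all genes were called, against 437 and 949 with the library kept.

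Eng encodes endoglin, an accessory receptor for TGF-beta family ligands best known from endothelial cells (ENSMUSG00000026814, chromosome 2, 32646595 to 32682669, plus strand). Its lowest, median and highest library over all 17 stood at 1.61, 3.345 and 4.945 CPM, and the groups overlapped in all 9 comparisons. Replicates 1, 2 and 3 stood at 1.61, 4.32 and 2.62 CPM in pMSCV and at 4.945, 4.93 and 2.94 CPM in SRF-RELA. Each SRF-RELA library was above its pMSCV counterpart, though replicates 2 and 3 were only 1.14 and 1.12 times as high. The blocked difference was 0.63 ± 0.28 (adjusted p = 0.213, edgeR test). In SRF-ICA1L, at 2.70, 3.53 and 2.15 CPM, all 3 libraries were below their SRF counterparts of 3.135, 4.25 and 3.01 CPM. Exons of Eng share 61 bases with Fpgs on the opposite strand, which stood at 17.02 to 39.3 CPM, and whether counting used the strand is not given in the sources used here.

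Anpep encodes CD13, a membrane aminopeptidase of pericytes, fibroblasts and myeloid cells (ENSMUSG00000039062, chromosome 7, 79821803 to 79861059, minus strand). Replicates 1, 2 and 3 stood at 89.2, 252.5 and 46.3 CPM in pMSCV, at 63.9, 91.9 and 46.4 CPM in SRF and at 213.5, 84.5 and 186.9 CPM in SRF-FOXO1. They stood at 57.9, 133 and 64.8 CPM in SRF-ICA1L and at 84.1, 148 and 65.4 CPM in SRF-RELA, and the SRF-PDGFRB libraries at 92.3 and 96.0 CPM. In 4 of the 5 groups of 3, replicate 2 was highest, and in SRF-FOXO1 it was lowest. The SRF-FOXO1 level was 1.26 ± 0.56 above SRF (adjusted p = 0.2435, edgeR test), and the groups overlapped. In SRF-FOXO1 replicate 2 was also lowest for the summed fibroblast genes (3868, 1318 and 7872 CPM in replicates 1, 2 and 3), and their part in the Anpep level was not tested. In the blocked fit Anpep was -0.69 ± 0.26 in SRF against pMSCV (adjusted p = 0.284), and that estimate ran from -1.34 to -0.01 when single libraries were left out of the unblocked fit. Both SRF-PDGFRB libraries lay above all SRF libraries, as 13% of all genes did, but only by 92.3 against 91.9 CPM at the nearest.

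Tbx18 is a T-box transcription factor expressed in mural cells and in epicardial progenitors (ENSMUSG00000032419, chromosome 9, 87702800 to 87731260, minus strand). Replicates 1, 2 and 3 stood at 20.3, 33.15 and 19.0 CPM in pMSCV and at 24.4, 28.9 and 26.4 CPM in SRF. They stood at 35.9, 37.4 and 34.6 CPM in SRF-FOXO1, at 37.5, 34.8 and 32.2 CPM in SRF-ICA1L and at 29.6, 37.05 and 29.8 CPM in SRF-RELA. The SRF-PDGFRB libraries held 34.6 and 24.3 CPM. All 9 SRF-FOXO1, SRF-ICA1L and SRF-RELA libraries lay above the highest SRF library. Against pMSCV only SRF-FOXO1 was separated, since pMSCV replicate 2 reached the level of the other fusions. Such gaps on the higher side held for 11.4% of all genes in SRF-FOXO1 against pMSCV and for 17.1% in SRF-FOXO1 against SRF.

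The group means of Tbx18 were 24.2 ± 7.81 CPM in pMSCV, 26.6 ± 2.28 CPM in SRF and 36.0 ± 1.385 CPM in SRF-FOXO1 (SD, n = 3 each). In SRF-RELA the mean was 32.2 ± 4.23 CPM and in SRF-ICA1L 34.8 ± 2.64 CPM (SD, n = 3 each). By the edgeR test, the log2 fold change against pMSCV was 0.57 ± 0.20 in SRF-FOXO1 (adjusted p = 0.136) and 0.53 ± 0.20 in SRF-ICA1L (adjusted p = 0.721). Against SRF it was 0.44 ± 0.20 in SRF-FOXO1 (adjusted p = 0.257). With the replicate block in these 2 groups it was 0.46 ± 0.13 (adjusted p = 0.0835, where 1.57% of all genes were called). Their numbers were treated as paired, which the labels do not give, and the smaller SE rests on that. The 12-library block gave 0.57 ± 0.16 in SRF-ICA1L (adjusted p = 0.0811) and 0.45 ± 0.16 in SRF-RELA (adjusted p = 0.120) against pMSCV, and 0.40 in SRF-ICA1L against SRF (adjusted p = 0.464). Without pMSCV replicate 2, Tbx18 passed in all 3 fusions: 0.87 ± 0.17 in SRF-FOXO1 (adjusted p = 0.0410, no block), 0.77 ± 0.13 in SRF-ICA1L (adjusted p = 0.0157, block) and 0.65 ± 0.13 in SRF-RELA (adjusted p = 0.0172, block). Of all genes, unblocked fits with 1 library left out called 0 to 355 in SRF-FOXO1. The blocked fit called 543 in SRF-ICA1L and 1200 in SRF-RELA, against 437 and 949 with pMSCV replicate 2 kept. That library was also the highest of pMSCV for Cd248, Anpep and Eng and for the summed fibroblast genes, and the part of this in the calls was not tested. Exons of Tbx18 share 970 bases with D030062O11Rik on the opposite strand, which held 10 to 35 counts per library.

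**Figure D4:**
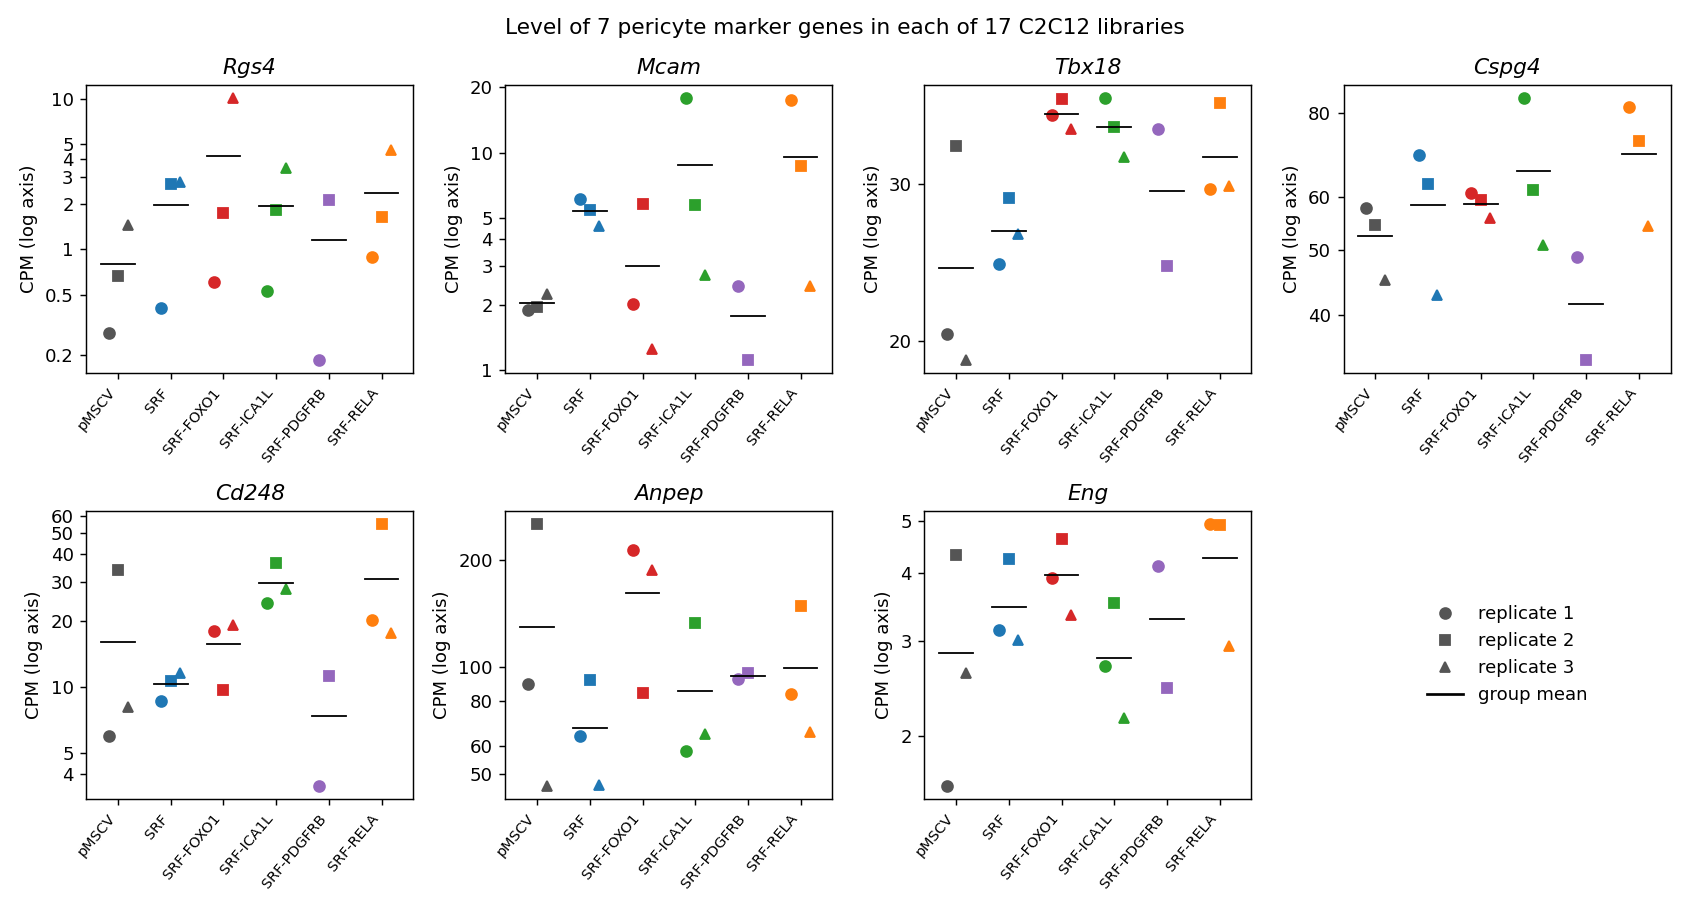
Level (CPM, log axis) of the 7 genes in each of 17 libraries, coloured by group and shaped by replicate number, with the group mean as a line. Rgs4 replicate 1 is lowest and replicate 3 highest in every group of 3, Cspg4 shows the reverse, and the SRF-FOXO1, SRF-ICA1L and SRF-RELA libraries of Tbx18 all lie above those of SRF.

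In SRF-PDGFRB no member's range was separated from that of pMSCV, where 8.67% of all genes lay higher and 7.23% lower. Against SRF, Mcam lay lower (12.7% of all genes) and Anpep higher. The 2 SRF-PDGFRB libraries were close for Anpep (92.3 and 96.0 CPM) and far apart for Rgs4 (0.184 and 2.135 CPM) and Cd248 (3.54 and 11.2 CPM). With 1 of them left out the arm is a single library, assumed to vary like the other groups, and such a fit says nothing about stability.

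Replicate number accounted for a large share of the variation of some members and little of others. In the 12 libraries whose numbers pair, the number held 72.5% of the variance of log2 CPM for Anpep, 72.2% for Rgs4 and 67.2% for Cspg4. It held 39.5% for Eng, 30.6% for Cd248, 28.7% for Mcam and 24.4% for Tbx18. The group held 54.4% for Tbx18, 50.3% for Cd248 and 44.0% for Mcam, then 32.1% for Eng, 25.9% for Cspg4, 21.8% for Rgs4 and 12.5% for Anpep. The median of all genes was 49.65% by number and 19.55% by group. Rgs4, the gene called with the block, was therefore among the members with the largest share by number.

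**Figure D5:**
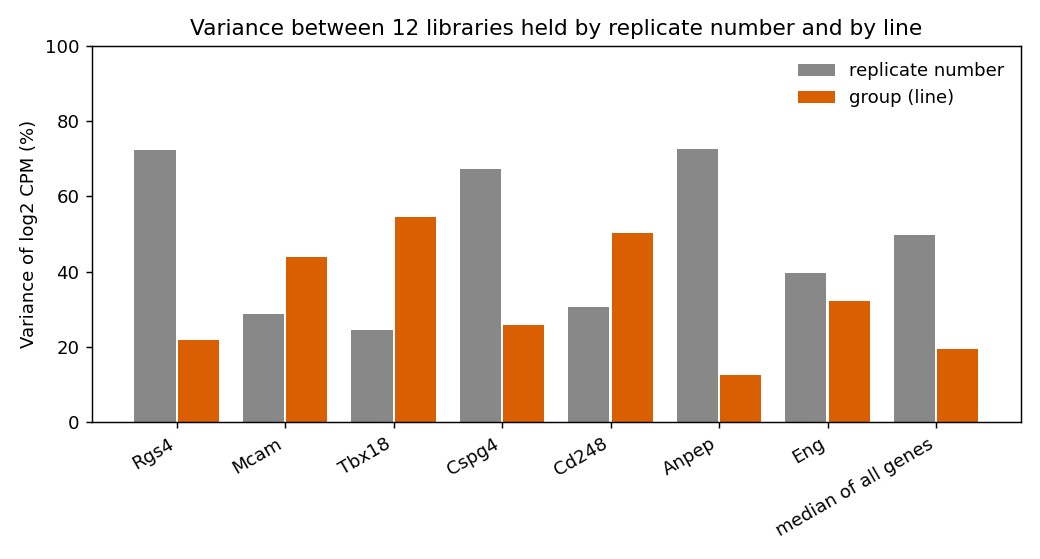
Percent of the variance of log2 CPM held by replicate number and by group in the 12 libraries of SRF-RELA, SRF-ICA1L, SRF and pMSCV, for the 7 genes and the median of all genes. Anpep, Rgs4 and Cspg4 have over 67% by number, and Tbx18, Cd248 and Mcam have more by group than by number.

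The members did not move as 1 set across the libraries. Among pairs of members, Pearson's r over the 17 libraries ran from -0.303 (Mcam with Anpep) to 0.777 (Mcam with Cspg4), and Eng with Tbx18 stood at 0.605. These are descriptions over libraries that share lines and replicate numbers. For the 3 members with the widest range of group medians, the 3 genes most alike over the 17 libraries (log2 CPM, genes with a mean of at least 1 CPM) were as follows. Mcam was most like Ceacam1 (r = 0.885), Hacd2 (0.878) and Manf (0.861). Cd248 was most like Adamts2 (0.955), Gm13372 (0.901) and Postn (0.8875). Rgs4 was most like Jade2 (0.9285), Smoc2 (0.9185) and Lhpp (0.902).

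Of 20 other pericyte genes listed, 13 were in the table, and none was called in any of the 9 comparisons by the edgeR test. Their median log2 fold change against pMSCV was -0.56 in SRF-RELA, -0.24 in SRF-ICA1L, 0.00 in SRF-FOXO1, -0.09 in SRF and -0.35 in SRF-PDGFRB, below the median of the 7 members in each line. Of the 13, Cygb, Ndufa4l2, Pth1r, Heyl and Lamc3 were near the floor, at medians of 0.13 to 0.44 CPM over the 17 libraries. The SRF-RELA median was the estimate of Art3 (1.095 CPM), and the SRF-ICA1L median that of Lamc3. In SRF-RELA 5 estimates were higher (Pdgfrb 0.80, Foxf2 1.09, Angpt1 0.63, Ebf1 0.36 and Foxc1 0.27) and 8 lower. The lower ones included all of those near the floor. With the block in 12 libraries, where 11 of the 13 were tested, the median of the list was -0.14 in SRF-RELA, 0.06 in SRF-ICA1L and 0.14 in SRF. The sign thus changed in SRF-ICA1L and in SRF. The block and the smaller gene set came in together, and their parts in this change were not told apart. Pdgfrb, the receptor that recruits pericytes, was the most abundant of these genes. It stood at 159, 345 and 103 CPM in pMSCV, at 594, 284 and 510 CPM in SRF-FOXO1 and at 349, 412 and 298 CPM in SRF-RELA. The pMSCV range overlapped both. SRF stood at 259, 245 and 121 CPM, below every library of these 2 fusions. Such a gap above SRF held for 17.1% of all genes in SRF-FOXO1 and 5.86% in SRF-RELA. By the edgeR test, the Pdgfrb log2 fold change against pMSCV was 1.19 ± 0.42 in SRF-FOXO1 (adjusted p = 0.133), and in SRF-RELA 0.96 ± 0.25 with the block (adjusted p = 0.0505). Against SRF it was 1.15 ± 0.42 in SRF-FOXO1 without the block (adjusted p = 0.205). The SRF-PDGFRB libraries held 247 and 196 CPM.

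In that blocked fit, 2 of the 11 genes rose in SRF-RELA (6.48% of all genes were called) and the same 2 in SRF-ICA1L (2.99%), and none fell. The estimates of the list were split, with 5 higher and 6 lower in SRF-RELA and 6 higher and 5 lower in SRF-ICA1L. Foxf2, a forkhead factor of brain pericytes, had means of 16.3 ± 2.44 CPM in SRF-RELA, 13.5 ± 2.78 CPM in SRF-ICA1L and 7.62 ± 2.07 CPM in pMSCV (SD, n = 3 each). It rose by 0.84 ± 0.19 in SRF-ICA1L (adjusted p = 0.0444) and by 1.14 ± 0.19 in SRF-RELA (adjusted p = 0.00812). In SRF it was 0.23 ± 0.19 above pMSCV (adjusted p = 0.556). Angpt1, the angiopoietin that pericytes secrete towards endothelial cells, rose by 0.75 ± 0.13 in SRF-ICA1L (adjusted p = 0.0160) and by 0.66 ± 0.13 in SRF-RELA (adjusted p = 0.0158). In SRF it was higher by a like amount, 0.68 ± 0.13, without passing (adjusted p = 0.0981). Its group means were 155 ± 58.1 CPM in SRF-RELA, 157 ± 53.5 CPM in SRF, 161 ± 45.8 CPM in SRF-ICA1L and 100.2 ± 46.0 CPM in pMSCV (SD, n = 3 each).

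Smooth and skeletal muscle markers were read beside the pericyte genes. Summed smooth muscle genes (11 of 12 listed, led by Acta2 and Cald1 at medians of 2179 and 899.7 CPM) stood at 780 to 3452 CPM in pMSCV. The range was 1775 to 5350 CPM in SRF, 3033 to 5122 CPM in SRF-RELA, 3255 to 4085 CPM in SRF-ICA1L, 2959 to 4358 CPM in SRF-FOXO1 and 2635 to 3022 CPM in SRF-PDGFRB, and the highest library was one of SRF. None was called without the block. With it, 3 of 10 tested rose in SRF-ICA1L (Tagln, Cald1 and Smoc2, by 0.72 to 2.50), where 1.34% of all genes were called higher. Tagln and Smoc2 were near the floor, at medians of 0.938 and 0.823 CPM over the 17 libraries. In SRF-RELA 3 rose (Tagln, Lmod1 and Smoc2, by 2.11 to 3.48), where 3.19% were called higher, and in SRF 0 of 10 passed and 4 had an unadjusted p under 0.05. The median of the list was 1.69 in SRF-ICA1L, 2.03 in SRF-RELA and 1.10 in SRF, against 0.57, 0.63 and 0.17 for the pericyte members in the same fit. Skeletal genes lay lower: the blocked fit called 9 of 15 lower in SRF-RELA (3.29% of all genes) and 7 in SRF-ICA1L (1.65%). In SRF 0 passed in that fit, but all 15 estimates were negative (median -0.98). Of these, 11 had an unadjusted p under 0.05, as 7.51% of all genes did on the lower side. Without the block 1, Erbb3, fell in SRF-FOXO1 (-3.86, adjusted p = 0.0384), where all 15 estimates were negative. In SRF-PDGFRB, also without the block, 6 estimates were higher and 9 lower. Of the 9 fibroblast genes the blocked fit called 1, Cd34, higher in SRF-RELA against pMSCV (1.23, adjusted p = 0.0242, edgeR test). The part of these shifts in the pericyte gene levels was not tested.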

How the data were processed

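RNA of 17 C2C12 libraries was sequenced on an Illumina NovaSeq instrument from a stranded kit for polyadenylated RNA, per the labels' protocols. Per the submitters' processing notes, the tools were FastQC 0.11.8, Trimmomatic 0.39, HISAT2 and featureCounts (Subread 2.0.0), and the build was GRCm38. Whether counting used the strand is not given in the sources used here. The authors deposited raw counts per gene in a single table, which was the starting point. Its groups and replicate numbers were taken from the library titles. Every gene in the table had at least 10 counts in at least 3 libraries, so genes below that level are outside it. Of 1531 rows with no symbol, 1519 were named from a reference table. The rows without a symbol held 0.555% to 1.13% of a library's counts, were identified by gene ID and were tested like the others.

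After TMM scaling, 1 quasi-likelihood model with robust dispersions and a group term was fitted to all 17 libraries (R 4.3.3, edgeR 4.0.16, limma 3.58.1). Each of 9 comparisons was adjusted over 15062 genes by the Benjamini-Hochberg method, with 0.05 as the threshold for a call. The SE is the size of the log2 fold change divided by the square root of F. The biological coefficient of variation was 36.5%. The scripts were tested on simulated data.

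Replicate numbers recur in all groups. Whether they pair libraries was checked on the deviations from the group means: over all genes, r was 0.392 to 0.789 between libraries of the same number and at most 0.114 between other libraries of SRF-RELA, SRF-ICA1L, SRF and pMSCV. Deviations from a group mean sum to 0, so high r within a number lowers r between numbers. For SRF-FOXO1, r was 0.220 to 0.330 with SRF (treated as paired) and -0.195 to 0.170 with pMSCV (not treated as paired). For SRF-FOXO1 replicate 2, r was 0.345 and 0.421 with replicate 1 of SRF-ICA1L and SRF-RELA. With their replicate 2 it was 0.102 and -0.013. For SRF-FOXO1 replicate 3, r with replicate 3 of these lines was 0.501 and 0.454. As SRF and pMSCV pair with each other, what the number marks in SRF-FOXO1 cannot be told from these values. SRF-PDGFRB was too small to tell. The 4 groups were thus treated as paired from these correlations, not from the labels, and a fit with the number as a block is given beside results it changes. DESeq2 1.42.0, other scalings, filters and left-out libraries were alternatives. Leaving single libraries out of the blocked fit was chosen after seeing the data.

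Log2 fold changes with SE and p are printed for a member where its unadjusted p was under 0.05 with or without the block in 12 libraries, and for Rgs4 in SRF-RELA in both. From the other lists, genes called in any comparison, Pdgfrb and the 2 most abundant genes were open to naming. Further pericyte genes given with a level or estimate were named after their values were seen. The members and lists were chosen with earlier results of these data known. Gene positions are from the GENCODE annotation of GRCm38 and promoter windows from RefSeq.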

Additional observations from a re-analysis of the deposited data

How the results depend on the processing

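The 21 member differences followed through the alternatives had an unadjusted p under 0.05 (edgeR test) with or without the block in 12 libraries. None reversed its direction, but they were chosen for lying away from 0 in these same libraries. Estimates near 0 did: Eng in SRF-ICA1L against pMSCV went from -0.03 to 0.0046 with the replicate block in 12 libraries, and Cd248 in SRF-FOXO1 against pMSCV from -0.04 to 0.43 with the replicate block in the 2 groups. The median of the other pericyte genes changed sign in SRF-ICA1L and SRF between the fit without the block (13 genes) and that with it (11 genes). The count of members called was 0 without the block in all 9 comparisons, and 142 alternative counts were also 0, against 8 that were not. With the replicate block in all 17 libraries, 1 member was called in SRF-FOXO1 against pMSCV (Rgs4, named after its values were seen, 1.98 ± 0.53, adjusted p = 0.0452), a pair of groups whose numbers were not treated as paired. With the replicate block in 12 libraries, 1 was called in SRF-RELA against pMSCV. The block in the 2 groups compared changed no member's call. Leaving out single libraries gave 0 to 1 called in SRF-FOXO1 against pMSCV without a block, and with the block 0 to 2 in SRF-ICA1L and 0 to 2 in SRF-RELA against pMSCV. Among the alternative log2 fold changes of members, 390 kept their direction and their side of the threshold and 9 newly passed it. These 9 were of Rgs4 and Mcam in SRF-RELA, Cd248 in SRF-ICA1L and SRF-RELA, and Tbx18 in SRF-FOXO1, SRF-ICA1L and SRF-RELA. The count over all genes moved far more. It was 107 in SRF-FOXO1, 3 in SRF-PDGFRB, 1 in SRF and 0 in the other 2 lines against pMSCV as reported, and across the alternatives it ran from 0 to 1363 in SRF-FOXO1 (DESeq2 highest), 0 to 1200 in SRF-RELA, 0 to 543 in SRF-ICA1L, 0 to 89 in SRF and 0 to 75 in SRF-PDGFRB against pMSCV. Against SRF it ran from 1 to 597 in SRF-FOXO1, 0 to 96 in SRF-RELA, 0 to 58 in SRF-PDGFRB and 0 to 14 in SRF-ICA1L. The cause of these shifts was not tested. Depth limited Rgs4 most, with 4 to 31 counts in pMSCV and SRF-PDGFRB replicate 1.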
